A study of Homo sapiens with 3 samples.

Results

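The genes described here encode the TAL1 oncogenic transcription factor complex and the factors that share its binding sites in Jurkat cells, an established line of human T-lineage acute lymphoblastic leukaemia. The set was taken as the rows with 10 listed symbols, of which TAL1, LMO1, LDB1, GATA3, RUNX1, MYB, TCF3, TCF12 and LYL1 were followed, 9 of the 17329 genes measured. LMO2 was not analysed here. Polyadenylated RNA was sequenced from cells kept for 48 hours in 3 media. One culture medium held sodium oxamate at 50 mM, which blocks lactate dehydrogenase, together with L-sodium lactate at 10 mM (oxamate+lactate), one held the same oxamate alone (oxamate), and the third was standard medium with neither (control). The series asks how histone lactylation bears on transcription. Each condition had 1 library, so differences could not be set against a spread between replicates and no test was made. Nothing in the labels says how many cultures stand behind a library.

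TAL1 is a basic helix-loop-helix protein of blood stem cells and the red cell lineage that is normally silent in maturing T cells. It binds the E-box, a short DNA word, only as a pair with an E protein, and these are encoded by TCF3 (E2A) and TCF12 (HEB). LIM-only proteins such as LMO1 bridge that pair to LDB1, which can dimerise and so join distant sites. In T-lineage leukaemia GATA3, RUNX1 and MYB occupy the same enhancers, and together with TAL1 they are described as a circuit whose members sustain each other's expression. Jurkat cells carry a small insertion upstream of TAL1 that creates a MYB binding site. LYL1 is a close relative of TAL1 that drives another subtype of the disease.

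All values are normalized counts as deposited, rounded by the authors, and the depth in reads is unknown. They summed over genes to 8171633 in oxamate+lactate, 8821115 in oxamate and 8220199 in control. Ratios are given as log2((value + 1)/(value + 1)), and a gene was compared with all genes only if its mean over the 3 libraries was at least 50, a floor that 12292 genes passed. The median log2 ratio of these genes was 0.08 for oxamate against control, -0.09 for oxamate+lactate against oxamate and -0.01 for oxamate+lactate against control. The scaling of the libraries matters at this size, because equal sums over genes would shift the median of all genes by -0.10, by 0.11 and by 0.01 in these comparisons. RNA was taken from equal numbers of cells, and RNA spike-ins added after extraction give a technical spread. The 6 spike-ins with a mean of at least 1000 had log2 ratios between -0.08 and 0.10 for oxamate against control, between -0.11 and 0.02 for oxamate+lactate against oxamate, and between -0.11 and -0.01 for oxamate+lactate against control. They do not measure the spread between cultures. The T-lineage label held in the data. Of 11 T-cell markers, 10 had values, which summed to 12990 in oxamate+lactate, 14094 in oxamate and 12693 in control. CD3E, a chain of the T-cell receptor complex, had 4011 in oxamate+lactate, 4128 in oxamate and 4488 in control, and the kinase LCK had 3861, 4368 and 3316. B-cell markers summed to 87, 69 and 92 in the same order, with 3 of 5 measured, most of it CD79A at 71, 62 and 76. None of 5 myeloid markers was analysed here, and of 9 erythroid markers only EPOR was, at 90, 109 and 117.

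TAL1 was modestly higher in both treated libraries than in control. It had 1016 normalized counts in oxamate+lactate, 1133 in oxamate and 906 in control, so the oxamate library was highest and control lowest. The log2 ratio was 0.32 for oxamate against control, and 22.9% of all genes over the floor had a higher one. It was -0.16 for oxamate+lactate against oxamate and 0.17 for oxamate+lactate against control. TAL1 thus stood outside the range of the 6 abundant spike-ins in each comparison, but well inside the bulk of the genes. The 18 spike-ins with a mean of at least 100 reached 0.29 for oxamate against control. They spanned -0.39 to 0.10 for oxamate+lactate against oxamate and -0.39 to 0.39 for oxamate+lactate against control. TAL1 lay inside both of these wider ranges. An antisense gene, AL135960.1, overlaps TAL1 in the annotation and was not analysed here. Strand is not marked by the kit used, so reads of that gene and of TAL1 cannot be told apart. In bulk RNA, fewer cells expressing a gene and less of its RNA per cell cannot be told apart either.

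The windows before the starts of TAL1 are shown because the proteins of this circuit are described as acting on each other's genes, and they were chosen with their matches known. RefSeq gives TAL1 a pair of starts on the minus strand of GRCh38.p14. The 250 bases before the outer start (chr1:47232336-47232585) and before the inner start (chr1:47231716-47231965) follow, 5′ to 3′, and neither overlaps an exon of TAL1 in GENCODE 29. Capitals mark the words searched on both strands: CANNTG (the E-box), AGATAA or AGATAG or TGATAA or TGATAG (the GATA words), TGTGGT or TGCGGT (the RUNX words), and CAACGG or CAACTG or TAACGG or TAACTG (the MYB words). The MYB word CAACTG is also an E-box.
TAL1 outer start: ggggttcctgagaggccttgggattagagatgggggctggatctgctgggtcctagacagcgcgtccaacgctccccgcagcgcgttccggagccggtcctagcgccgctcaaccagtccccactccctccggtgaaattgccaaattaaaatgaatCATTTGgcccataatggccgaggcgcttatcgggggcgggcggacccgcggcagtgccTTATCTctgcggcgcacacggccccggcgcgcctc
TAL1 inner start: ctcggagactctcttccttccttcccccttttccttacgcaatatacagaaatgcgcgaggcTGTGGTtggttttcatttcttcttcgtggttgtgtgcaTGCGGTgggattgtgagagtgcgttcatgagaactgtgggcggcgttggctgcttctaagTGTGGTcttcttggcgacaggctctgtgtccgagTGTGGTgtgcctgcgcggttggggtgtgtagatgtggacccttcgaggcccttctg
The outer window held 1 E-box, CATTTG, whose first base is at position -93 before the start, and 1 GATA word read on the other strand, TTATCT, at position -35. The inner window held no E-box, GATA or MYB word and 4 RUNX words, at positions -188, -150, -90 and -56. Of the 35116 windows of this length in the RefSeq table, 61.8% held an E-box, 22.3% a GATA word, 16.3% a RUNX word and 21.1% a MYB word, and 10 of them (0.0285%) held 4 or more RUNX words. The windows of TCF3, RUNX1, MYB, LDB1 and LMO1 held no such word. Over the 9 genes and their 19 windows, 5 windows held an E-box, 2 a GATA word, 4 a RUNX word and 1 a MYB word. These matches describe the reference letters and are not binding sites.

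**Figure D1:**
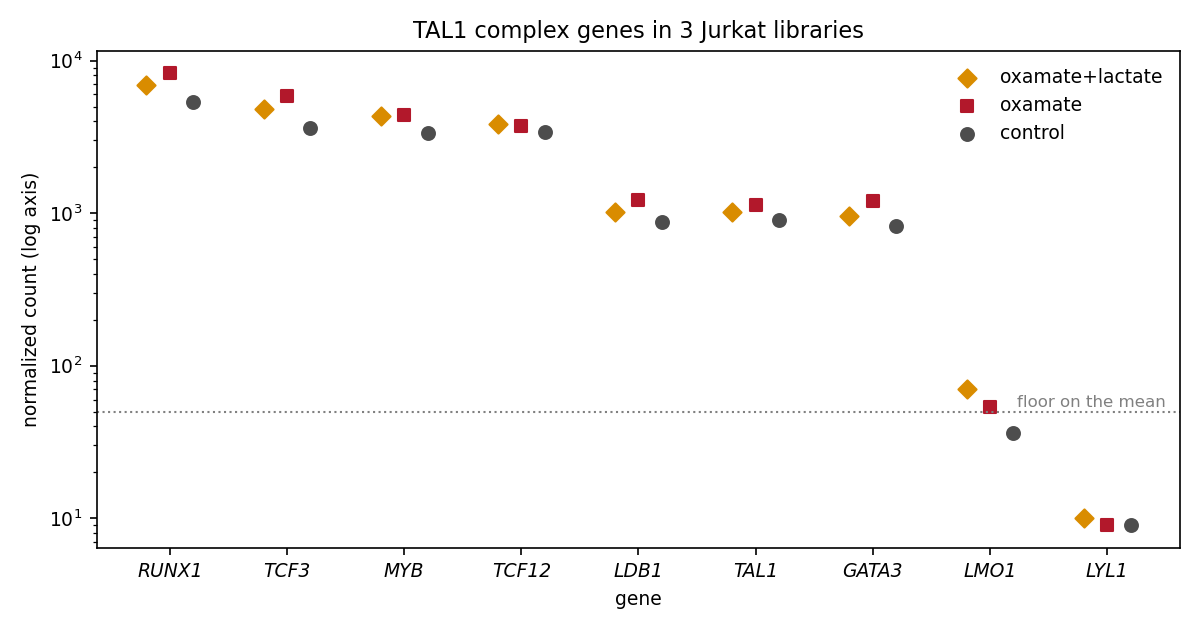
Normalized counts (log axis) of the 9 genes in the oxamate+lactate (diamonds), oxamate (squares) and control (circles) libraries, 1 library each, with genes in order of their mean. RUNX1, TCF3, GATA3, LDB1 and TAL1 are highest in oxamate, MYB and TCF12 have nearly equal values in the treated libraries, LMO1 is highest in oxamate+lactate and LYL1 stays between 9 and 10.

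The E proteins, the obligate partners of TAL1, differed from each other. TCF3 had 4843 normalized counts in oxamate+lactate, 5827 in oxamate and 3597 in control. Its log2 ratio for oxamate against control, 0.70 or 1.62-fold, was the highest of the set on the deposited scale, and 4.38% of all genes had a higher one. TCF12 had 3821 in oxamate+lactate, 3754 in oxamate and 3407 in control, a log2 ratio of 0.14 for oxamate against control that 42.8% of all genes exceeded. The ratio of TCF3 to TCF12 within a library does not depend on how libraries were scaled. It was 1.27 in oxamate+lactate, 1.55 in oxamate and 1.06 in control. TCF3 has a GC content of 61.2% in its longest transcript, TCF12 one of 40.8%, and the ratios of oxamate against control were higher for GC-rich genes (Spearman's rho 0.31 over 11224 genes, a description, since genes are no independent replicates). With the trend on GC content and length removed, the log2 ratio for oxamate against control was 0.54 for TCF3 and 0.22 for TCF12, so TCF3 fell short of 1.5-fold there and stood below RUNX1 at 0.61 and LMO1 at 0.56. What part GC content has in these ratios was not tested.

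Set against the mRNA of its partners, TAL1 was slightly lower in the treated libraries. TCF3 and TCF12 together had 8664 normalized counts in oxamate+lactate, 9581 in oxamate and 7004 in control. TAL1 counts per E-protein count were 0.117 in oxamate+lactate, 0.118 in oxamate and 0.129 in control, a log2 difference of -0.13 for oxamate against control. That difference is smaller than the width of the range of the abundant spike-ins.

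ID1 and ID3, genes of ID proteins, were higher in both treated libraries than in control. ID proteins pair with E proteins and keep them from DNA. ID3 had 997 normalized counts in oxamate+lactate, 1330 in oxamate and 597 in control, 2.23-fold higher in oxamate than in control. ID1 had 246, 338 and 162 in the same order, 2.08-fold higher in oxamate than in control. ID2 was low, at 19, 17 and 19, and ID4 was not analysed here. Of the 2 ID genes over the floor, 2 were at least 1.5-fold higher in oxamate than in control, and 2 in oxamate+lactate than in control, where 7.48% and 2.99% of all genes were, although with a pseudocount of 10, or with the GC and length trend removed, only 1 remained past that size in the second comparison. This list was written with earlier results of these data known, and 2 genes are too few to set against these shares. Together the 3 ID genes gave 0.146 counts per E-protein count in oxamate+lactate, 0.176 in oxamate and 0.111 in control. A ratio of counts between genes is not a ratio of molecules, since longer mRNAs give more reads.

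**Figure D2:**
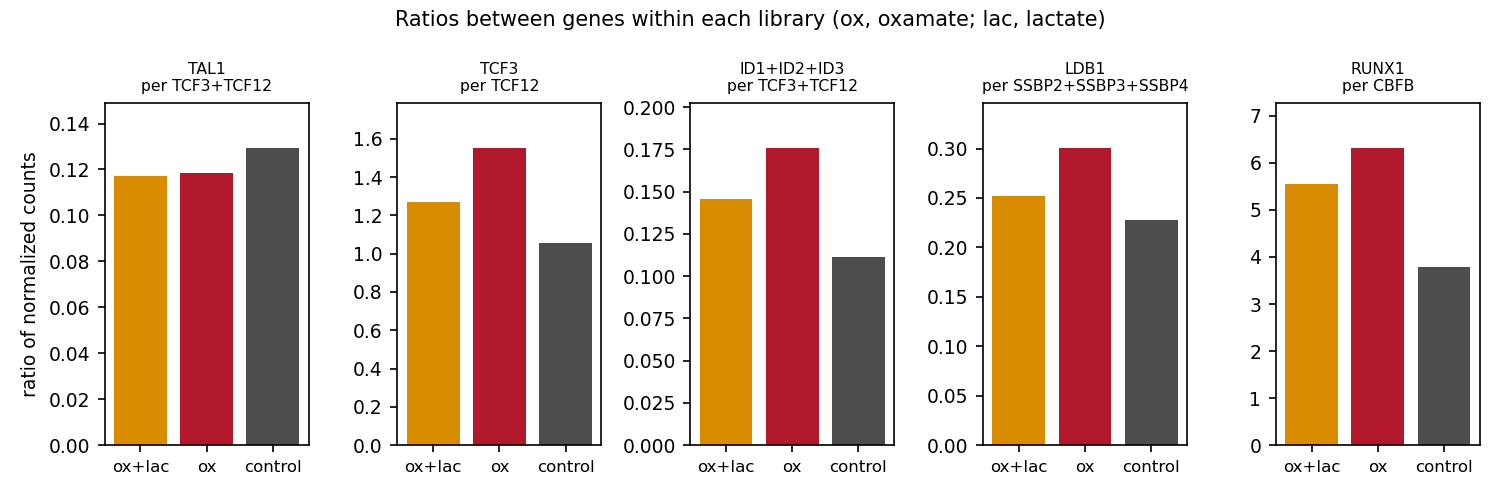
Ratios between normalized counts of genes within each library, for oxamate+lactate, oxamate and control from left to right, 1 library each; all axes start at 0. TCF3 per TCF12, ID per E protein, LDB1 per SSBP and RUNX1 per CBFB are highest in oxamate, while TAL1 per E protein is lowest in the 2 treated libraries.

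Among the bridging proteins, LDB1 had 1022 normalized counts in oxamate+lactate, 1222 in oxamate and 875 in control. The log2 ratio was 0.48 for oxamate against control and -0.26 for oxamate+lactate against oxamate. Single-stranded DNA binding proteins of the SSBP family hold LDB1 in the complex and protect it from degradation. SSBP2, SSBP3 and SSBP4 summed to 4059 in oxamate+lactate, 4066 in oxamate and 3835 in control, so LDB1 per SSBP count was 0.252, 0.301 and 0.228. SSBP3 overlaps MRPL37, and SSBP4 overlaps ISYNA1, on the other strand.

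LMO1 was the only gene of the set over the floor that was at least 1.5-fold higher in oxamate+lactate than in control, as 2.99% of all genes were. It had 70 normalized counts in oxamate+lactate, 54 in oxamate and 36 in control, 1.92-fold higher in oxamate+lactate than in control. The log2 ratio was 0.94 for oxamate+lactate against control, which 0.610% of genes exceeded, and 0.37 for oxamate+lactate against oxamate, which 1.61% exceeded. On the deposited scale, LMO1 and TCF12 were the 2 genes with the highest value in oxamate+lactate and the lowest in control. For TCF12 the log2 ratio of oxamate+lactate against oxamate was only 0.03. With the GC and length trend removed it was -0.0036, so its sign depends on the processing. LMO1 passed the floor only through the treated libraries, its values are small, and the counting error behind them is unknown. The related LIM-only gene LMO4 did not share this order, with 429 in oxamate+lactate, 425 in oxamate and 526 in control.

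LYL1, the relative of TAL1, was at 10 normalized counts in oxamate+lactate, 9 in oxamate and 9 in control. It lay under the floor, and no difference was detectable at this level.

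RUNX1, a factor of definitive blood formation that binds DNA with its partner CBFB, was higher in both treated libraries than in control. It had 6969 normalized counts in oxamate+lactate, 8255 in oxamate and 5351 in control. It was 1.54-fold higher in oxamate than in control (log2 ratio 0.63), and 6.30% of all genes had a higher ratio. CBFB was slightly lower in the treated libraries, at 1254 in oxamate+lactate, 1307 in oxamate and 1416 in control. RUNX1 per CBFB was 5.56 in oxamate+lactate, 6.32 in oxamate and 3.78 in control. RUNX3, which shares the partner, had 311, 332 and 241 in the same order, and RUNX2 had 94, 74 and 94.

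GATA3, the T-lineage GATA factor, had 963 normalized counts in oxamate+lactate, 1201 in oxamate and 827 in control. Its log2 ratio was 0.54 for oxamate against control and -0.32 for oxamate+lactate against oxamate, the lowest of the set in that comparison, with 9.20% of all genes lower. On the deposited scale its value in oxamate+lactate was nearer to control than to oxamate. With equal sums over genes, the oxamate+lactate log2 ratios were 0.23 against control and -0.21 against oxamate. With equal sums over the spike-ins they were 0.29 and -0.25, so which library was nearer depends on the scaling.

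MYB, a factor of blood progenitors, had nearly equal values in the treated libraries. It had 4304 normalized counts in oxamate+lactate, 4381 in oxamate and 3365 in control. The log2 ratio was 0.38 for oxamate against control, -0.03 for oxamate+lactate against oxamate and 0.35 for oxamate+lactate against control. Set against the median gene, the second of these was 0.06, so its sign depends on the scaling. MYB-AS1 overlaps MYB on the other strand and had 583, 575 and 571 in the same order, and reads that could belong to both cannot be told apart. MYBL2, the family member tied to the cell cycle, had 2578 in oxamate+lactate, 2889 in oxamate and 3521 in control.

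Taken as a set, 8 of the 9 genes passed the floor, and all 8 had log2 ratios above 0 for oxamate against control, also with every scaling tried and with the GC trend removed. Of all genes, 59.6% were above 0. The members were chosen with earlier results of these data known, so their direction is no independent evidence in any of the 3 comparisons. The ratios lay between 0.14 (TCF12) and 0.70 (TCF3) with a median of 0.51. TCF3 and RUNX1, 2 of the 8, were at least 1.5-fold higher and none was 1.5-fold lower, against 7.48% and 3.98% of all genes. LMO1 (1.49-fold), which passed the floor only through the treated libraries, and GATA3 (1.45-fold) lay just short of that size. With the median gene set to 0, or with equal sums over genes, only TCF3 passed it, while removing the trend on GC content and length left only RUNX1 past it, at a log2 ratio of 0.61. The 7 genes with means of at least 997 all lay above the highest of the 6 abundant spike-ins, at 0.10. Of the 18 spike-ins with a mean of at least 100, the highest was at 0.29. TCF12, at 0.14, was the only 1 of the 7 genes below it.

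For oxamate+lactate against oxamate, the ratios lay between -0.32 (GATA3) and 0.37 (LMO1) with a median of -0.20, against -0.09 for all genes. None of the 8 was at least 1.5-fold higher and none lower, where 0.252% and 0.903% of all genes were. TAL1, LDB1, GATA3, RUNX1 and TCF3 lay below the lowest abundant spike-in and below the median of all genes, while MYB, TCF12 and LMO1 lay above that median. None of the 8 lay below the lowest of the 18 spike-ins with a mean of at least 100, at -0.39.

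For oxamate+lactate against control, all 8 ratios were above 0, between 0.17 (TAL1) and 0.94 (LMO1), with a median of 0.29, where 47.9% of all genes were above 0. LMO1 alone was at least 1.5-fold higher and none was lower, against 2.99% and 3.07% of all genes. LMO1 passed the floor only through the treated libraries, so neither its ratio above 0 nor its call carries weight. With a floor of 200 no member was 1.5-fold higher. The 7 genes with means of at least 997 lay between 0.17 and 0.43. TCF3 had 0.43, RUNX1 0.38, MYB 0.35, LDB1 and GATA3 0.22 each and TCF12 0.17. The 3 comparisons share libraries, so they are not independent of each other. On the deposited scale, in 6 of the 9 genes the oxamate library had the highest value and control the lowest. How many of all genes share that order was not counted. Of all genes, 59.6% were above 0 for oxamate against control and 29.1% for oxamate+lactate against oxamate. MYB, 1 of the 6, leaves the order with equal sums over genes, at 0.08 for oxamate+lactate against oxamate.

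**Figure D3:**
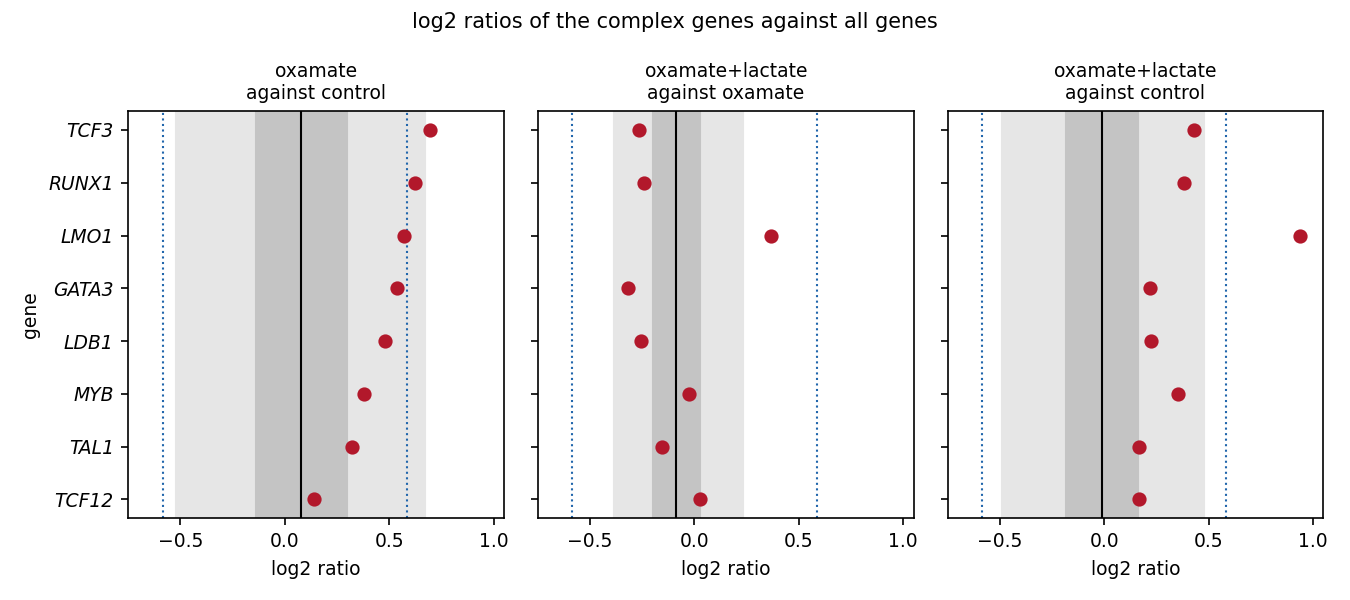
log2 ratios (x axis) of the 8 genes over the floor in the 3 comparisons, 1 library per condition. The black line is the median of 12292 genes, dark grey spans their interquartile range and light grey their 5th to 95th percentile, and dotted lines mark 1.5-fold; TCF3 and RUNX1 pass that line in the first panel and LMO1 in the third.

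Levels between genes were compared as normalized counts per kilobase of the longest annotated transcript. In oxamate, TCF3 had 1309, MYB 1193, RUNX1 1135, TCF12 619, LDB1 535, GATA3 385, TAL1 227, LMO1 42.2 and LYL1 5.82. In control the first places differed, with MYB at 916, TCF3 at 808 and RUNX1 at 736 per kilobase. TAL1 was at 181 there, above 71.2% of the genes over the floor that have a length. With the length of all annotated exons in place of the longest transcript, TCF12 stood above RUNX1 in control, at 361 against 344 per kilobase, and LDB1 stood above TCF12 in oxamate, at 438 against 397, so the order of these 3 depends on the length used.

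Genes described as activated by the TAL1 complex in this leukaemia were mostly higher in both treated libraries. Of 10 such genes, all over the floor, 6 were at least 1.5-fold higher and 1 lower in oxamate than in control, and 5 higher and none lower in oxamate+lactate than in control. Of all genes, 7.48% were higher and 3.98% lower by that size in the first comparison, and 2.99% and 3.07% in the second. The medians of the list were 0.87 and 0.59. For oxamate+lactate against oxamate none passed 1.5-fold and the median was -0.21. The list was written with earlier results of these data known, so its direction is no independent evidence. Several of its genes, MYC and TRIB2 among them, are also known as targets of Notch.

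ALDH1A2, the retinaldehyde dehydrogenase that the TAL1 complex switches on through GATA3, had 5813 normalized counts in oxamate+lactate, 7386 in oxamate and 3628 in control, 2.04-fold higher in oxamate than in control. Per TAL1 count, ALDH1A2 was higher by 0.70 on the log2 scale in oxamate than in control. TRIB2, a pseudokinase, had 463 in oxamate+lactate, 542 in oxamate and 264 in control, 2.05-fold higher in oxamate. ARID5B, a DNA-binding protein tied to the MYC enhancer in this disease, had 450, 520 and 262 in the same order, 1.98-fold higher. MYC had 3922 in oxamate+lactate, 5299 in oxamate and 2739 in control, 1.93-fold higher.

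GIMAP genes, a cluster of lymphocyte GTPases, differed in direction. GIMAP5 had 134 normalized counts in oxamate+lactate, 156 in oxamate and 84 in control, and GIMAP7 had 103, 104 and 57. GIMAP4 was lower, with 68 in oxamate+lactate, 52 in oxamate and 90 in control, 1.72-fold lower in oxamate than in control. GIMAP1, at 73, 73 and 56, overlaps GIMAP5 on the same strand, so both values are uncertain. CDK6, a kinase of the G1 phase, had 5523 in oxamate+lactate, 6664 in oxamate and 5308 in control, and TSPAN7, a tetraspanin, had 1401, 1518 and 1412.

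The inner window of ALDH1A2 is shown because it holds GATA, MYB and E-box words close together, and it was chosen for that. RefSeq places an internal start of ALDH1A2 on the minus strand, and the exon-free stretch before it lies in an intron of longer transcripts (chr15:58014102-58014176, GRCh38.p14, 5′ to 3′, with capitals as above).
ALDH1A2 inner start: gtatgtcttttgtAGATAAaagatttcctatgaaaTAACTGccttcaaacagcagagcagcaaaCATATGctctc
The 75 bases hold the GATA word AGATAA at position -140, the MYB word TAACTG at position -118 and the E-box CATATG at position -89 from the internal start. The files give 1 value per gene, so which start the Jurkat transcripts use was not measured.

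Genes described as held down by TAL1 or driven by free E proteins did not share a direction. RAG1, a subunit of the recombinase of antigen receptor genes, had 2087 normalized counts in oxamate+lactate, 1795 in oxamate and 2816 in control, 1.57-fold lower in oxamate than in control. RAG2 had 704, 669 and 959 in the same order. RAG1 and RAG2 overlap on opposite strands. NFKB1 had 578, 626 and 538. Of the 3 genes over the floor in this list, 1 was at least 1.5-fold lower and none higher in oxamate than in control, and none passed that size in the other comparisons. Of all genes, 3.98% were lower and 7.48% higher by that size in oxamate than in control. With the GC and length trend removed none was 1.5-fold lower, and with equal sums or the median gene set to 0 RAG2 passed that size as well, making 2.

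Of 15 cofactors over the floor, CBFA2T3 was the only one at least 1.5-fold different in any comparison. CBFA2T3, also called ETO2, is a corepressor that joins TAL1 complexes. It had 1464 normalized counts in oxamate+lactate, 1849 in oxamate and 989 in control, 1.87-fold higher in oxamate than in control. CBFA2T3 per TAL1 count was 1.44 in oxamate+lactate, 1.63 in oxamate and 1.09 in control. The median of the list for oxamate against control was 0.09, close to that of all genes, and 7.48% of all genes were at least 1.5-fold higher. HDAC1, a histone deacetylase, had 3164, 3408 and 3299 in the same order of libraries, and the demethylase KDM1A had 3231, 3567 and 2759. The acetyltransferases EP300 and CREBBP had 1287 and 1092 in oxamate+lactate, 1548 and 1267 in oxamate, and 1164 and 986 in control.

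Among the partner factors of blood cells and the genes described as MYB targets that passed the floor, only MYC was at least 1.5-fold different. Of 5 partner factors over the floor none was 1.5-fold different in any comparison, with a median of 0.32 for oxamate against control. ETS1 had 7997 normalized counts in oxamate+lactate, 7898 in oxamate and 7060 in control, and IKZF2, which encodes Helios, had 2016, 2276 and 1823. FLI1 had 860, 978 and 699, and ETV6 1850, 2168 and 1549. Of 5 MYB targets only MYC passed 1.5-fold in oxamate against control. Of all genes, 7.48% were higher and 3.98% lower by that size, and lists of 5 genes are too short to set against these shares. ADA, adenosine deaminase, had 6818 in oxamate+lactate, 7988 in oxamate and 5838 in control, with PKIG overlapping it, and KIT had 214, 221 and 221.

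**Figure D4:**
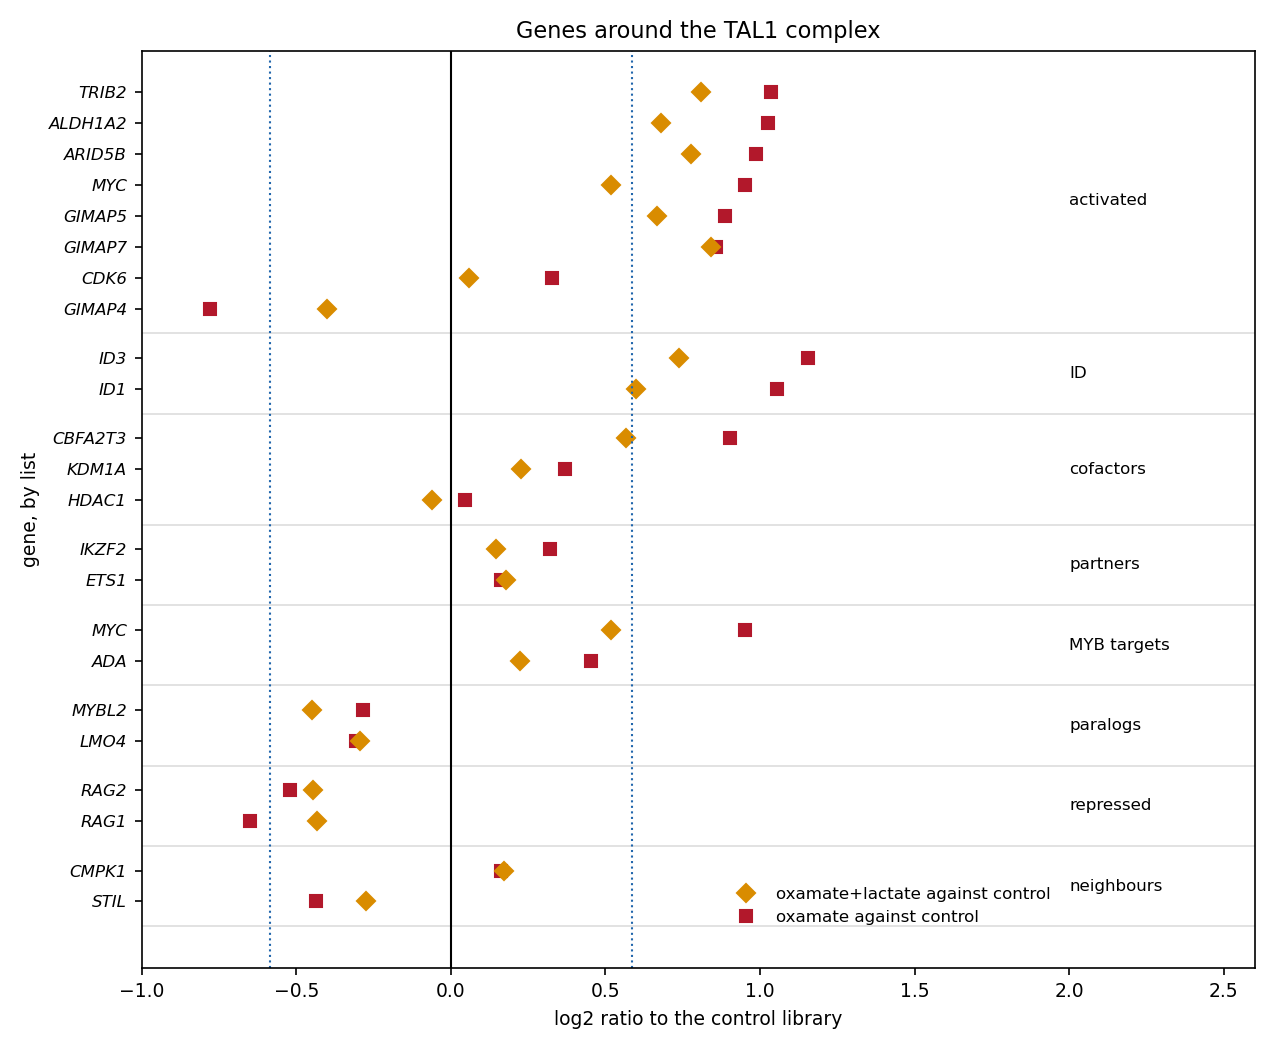
log2 ratios to the control library (x axis) for the genes of the lists shown that passed 1.5-fold in any comparison or had the 2 highest means, as diamonds for oxamate+lactate and squares for oxamate, 1 library each. Dotted lines mark 1.5-fold; ID3 in oxamate lies farthest to the right, and the genes described as activated by the TAL1 complex stand to the right of 0, with GIMAP4 the exception.

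The genes beside TAL1 on chromosome 1 differed in direction. STIL, a centriole gene whose promoter is fused to TAL1 in some patients' leukaemias, had 683 normalized counts in oxamate+lactate, 611 in oxamate and 827 in control. CMPK1, a nucleotide kinase, had 964, 959 and 856, and FOXD2 had 126, 163 and 165. Of these 3 genes over the floor none was 1.5-fold different, where 7.48% of all genes were higher and 3.98% lower in oxamate than in control. PDZK1IP1, CYP4X1 and CYP4A22 were not analysed here.

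Of the factors that define other subtypes of this leukaemia, NKX2-1 had 209 normalized counts in oxamate+lactate, 179 in oxamate and 234 in control, and HOXA10 had 125, 132 and 131. Neither was 1.5-fold different in any comparison, where 7.48% of all genes were higher and 3.98% lower in oxamate than in control. NKX2-1-AS1 and HOXA10-AS overlap them.

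The values of TAL1 are not distinctive in these libraries. By the distance between the pairs of log2 ratios against control, the 5 genes nearest to TAL1 were ATP11A, SNRPB, NUBP2, CIZ1 and KAT5, at distances between 0.0025 and 0.00464, over 3 libraries. ATP11A, the nearest, had 880 in oxamate+lactate, 979 in oxamate and 784 in control. As many as 1005 genes, 8.18% of those over the floor, lay within 0.1 of TAL1. Within the same distance lay 738 genes for TCF12, 522 for LDB1, 367 for MYB, 363 for GATA3, 267 for RUNX1, 181 for TCF3 and 4 for LMO1. The values of LMO1 are small, so its count says little.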

How the data were processed

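Polyadenylated RNA was measured in 3 Jurkat libraries, 1 per treatment label. The authors deposited 1 table of normalized counts for 17329 genes and 36 ERCC spike-ins, treated here as a score since all values are whole numbers after normalization. The submitters' processing notes name FastQC 0.11.9, STAR 2.7.1a, HTSeq 0.11.2 and hg19. Normalization method, annotation and depth: not given in the sources used here. Whole reads could not be recovered, so no count model was fitted and no interval is given.

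Ratios used a pseudocount of 1 and a floor of 50 on the mean, computed in Python 3.11.15 with pandas 2.3.3. Genes at least 1.5-fold different were counted, and the same share over all genes is the background. Transcript length, GC content and overlaps came from GENCODE 29, with a length for 91.3% of the genes over the floor. Windows before gene starts came from RefSeq (GRCh38.p14). The counting of genes past 1.5-fold was checked on simulated data with known folds, which says nothing of the spread between cultures. The members and the 13 lists were chosen with earlier results of these data known. Of the genes described as activated by the TAL1 complex, 1 is not reported here and is left out of the counts. The text names all members, of each list the genes past 1.5-fold in any comparison and the 2 with the highest mean, and the 5 genes nearest to TAL1; others were named after their values were seen.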

Additional observations from a re-analysis of the deposited data

How the results depend on the processing

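With 1 library per condition no replicate could be left out, and no paired analysis was possible because no condition has a second library. A move was counted as small when it was under the SD of the log2 ratios of the 18 spike-ins with a mean of at least 100. The median of the members kept its direction and moved less than that under all 5 alternatives in each comparison. For oxamate+lactate against oxamate the margin was slight. With equal sums that median went from -0.20 to -0.09, a move barely under the SD of 0.11, so its size depends on the scaling. Members at least 1.5-fold higher in oxamate than in control numbered 1 with equal sums, 1 relative to the median of all genes (TCF3 both times) and 0 at 2-fold, with RUNX1 alone past that size once the GC and length trend was removed, and in oxamate+lactate than in control 0 with a floor of 200 and 0 at 2-fold.

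Counts over all genes depend on the settings, by construction for floors and folds. For oxamate against control, equal sums gave 569 higher and 702 lower (44.8% higher, against 65.3% as deposited), the median of all genes as zero gave 634 and 655, no floor 2154 and 1632, a floor of 200 493 and 161, and 2-fold 149 and 108. For oxamate+lactate against oxamate, as deposited 31 and 111, equal sums gave 78 and 42, equal ERCC sums 56 and 68, the median as zero 66 and 52, a pseudocount of 10 20 and 80, no floor 663 and 864, a floor of 200 8 and 24, and 2-fold 0 and 1. For oxamate+lactate against control, as deposited 367 and 377, equal ERCC sums gave 507 and 266, no floor 1480 and 1549, a floor of 200 120 and 100, and 2-fold 67 and 42.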

Other observations

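Some genes of the lists lay under the floor of 50 and are given as values only, in the order oxamate+lactate, oxamate and control. PTCRA, the pre-T-cell receptor chain, had 48, 50 and 14 normalized counts, ERG 31, 34 and 16, GATA2 55, 47 and 33, NKX2-5 48, 67 and 30, HHEX 15, 15 and 12, and CDKN1A 12, 12 and 17. CD28, a T-cell costimulatory receptor, had 20, 66 and 3. PTCRA and CD28 are singled out after their values were seen, and counting error at this level is unknown.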
